A study of Rattus norvegicus with 18 samples.

Results

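Antibodies are built from V segments, short stretches of DNA that each encode most of a variable domain. In a developing B cell 1 heavy chain V segment is joined to a D and a J segment, and 1 kappa light chain V segment to a J segment, so that each B cell clone transcribes its own pair. Plasma cells, the end stage of this lineage, secrete antibody and hold very large amounts of immunoglobulin mRNA, in which the variable part is spliced to constant region exons that many clones share. A V segment is annotated typically as a short leader exon followed closely by a longer exon for the variable domain, and skeletal muscle fibres do not themselves rearrange these loci.

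The segments were taken from the count table by position and size. An entry was included when it was 250 to 450 bases long, had at most 2 distinct exon starts, and began on chromosome 6 between 138 and 146 Mb, the heavy chain window, or on chromosome 4 between 98 and 104 Mb, the kappa window, in Rnor_6.0. This gave 111 of the 32883 identifiers, 74 in the heavy chain window and 37 in the kappa window. A further 139 identifiers of other sizes lie in the windows, and 2209 entries of the same size and exon number lie elsewhere.

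RNA sequencing had been carried out on gastrocnemius, a calf muscle, of male Brown Norway rats of the substrain BN/SsNOlaHSD. Young rats fed ad libitum (young AL) were 6 months old, and aged rats were 28 months old and either fed ad libitum (old AL) or kept on caloric restriction (old CR), with 6 libraries in each group. Diets began at 2 months of age and CR intake was 55% of that of AL rats. Strain was shared by the 3 groups, as was housing, in groups at first and singly from maturation on. The comparisons address how muscle changed with age and whether lifelong CR altered that change. Total counts per library ran from 17335401 to 27432767. A floor of 3 counts, the limit that a count of 0 allows, corresponds to 0.109 to 0.173 CPM (counts scaled to the total of the library), and covers counting error only. The column names of 3 old CR libraries (8826, 8827 and 8828) could be matched to their group and not to 1 rat, so they are named by library number. Each group occupies its own block of library numbers, and group and handling cannot be told apart if the blocks were handled separately. Muscle, B cell and plasma cell markers were not analysed here, because the identifiers could not be paired with gene symbols.

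The label was first checked against the annotated structure and the counts. A leader exon of 20 to 120 bases, followed within 500 bases by an exon of 250 to 400 bases, was found in 60 of the 111 entries (54.1%), against 6.75% of the entries of the same size elsewhere. Single exons of 280 to 330 bases made up another 24 (21.6%), against 20.7% elsewhere, so this layout did not set the entries apart. In the heavy chain window 65 entries lie on the minus strand and 9 on the plus strand, and in the kappa window 14 and 23. Of the 111 entries, 87 had at least 1 count in the 18 libraries, namely 64 heavy chain and 23 kappa entries, and 10 heavy chain and 14 kappa entries had none.

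The counts went against the label for 4 entries. These were the only ones with counts in 17 or more of the 18 libraries, and none of them has the leader layout. The heavy chain window entry chr6:145777318-145777767 (minus strand) is a single exon of 450 bases and had 40 to 83 counts in young AL, 52 to 83 in old AL and 58 to 89 in old CR rats. The kappa window entry chr4:100231561-100232559 (minus strand, exons of 138 and 168 bases) had 653 to 1725 counts in every library, with no group standing apart. Its neighbour chr4:100250301-100252755 (minus strand, exons of 156 and 144 bases) had 164 to 613, with its highest counts in rat 8 (613) and library 8828 (491). On CPM by library total these were 34.2 and 17.9, above the 16 other libraries (8.22 to 16.8), and with edgeR's TMM scaling library 8828 (16.03) fell within the range of the others (9.20 to 17.8) and rat 8 (23.8) did not. The entry chr4:100599845-100600122, on the plus strand, had at most 8. They are called the widespread entries below, and their choice was made after the counts were seen. The remaining 73 heavy chain and 34 kappa entries had counts in at most 8 and 7 libraries respectively, and are called the segments. In the 16 libraries other than rat 8 and library 8828, the widespread entries took 87.6% of the counts on the 74 heavy chain entries. For the 37 kappa entries their share was 99.9%. Counts on identifiers of other sizes in the windows are not part of these shares.

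Nearly all segment counts came from 2 libraries, 1 in each aged group. Rat 8 (old AL) had 12440 heavy chain segment counts and library 8828 (old CR) had 1797. The 16 other libraries together had 149, of which the young AL libraries had 2 to 36 each (median 7.5), the 5 other old AL libraries 7 to 14, and the 5 other old CR libraries 0 to 9. Rat 8 thus held 86.5% and library 8828 12.5% of the heavy chain segment counts of the series. Kappa segments were distributed in the same way. Rat 8 had 6876 kappa segment counts, or 94.8% of the total, and library 8828 had 353, or 4.87%. No other library exceeded 6, and the 16 others summed to 26.

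**Figure D1:**
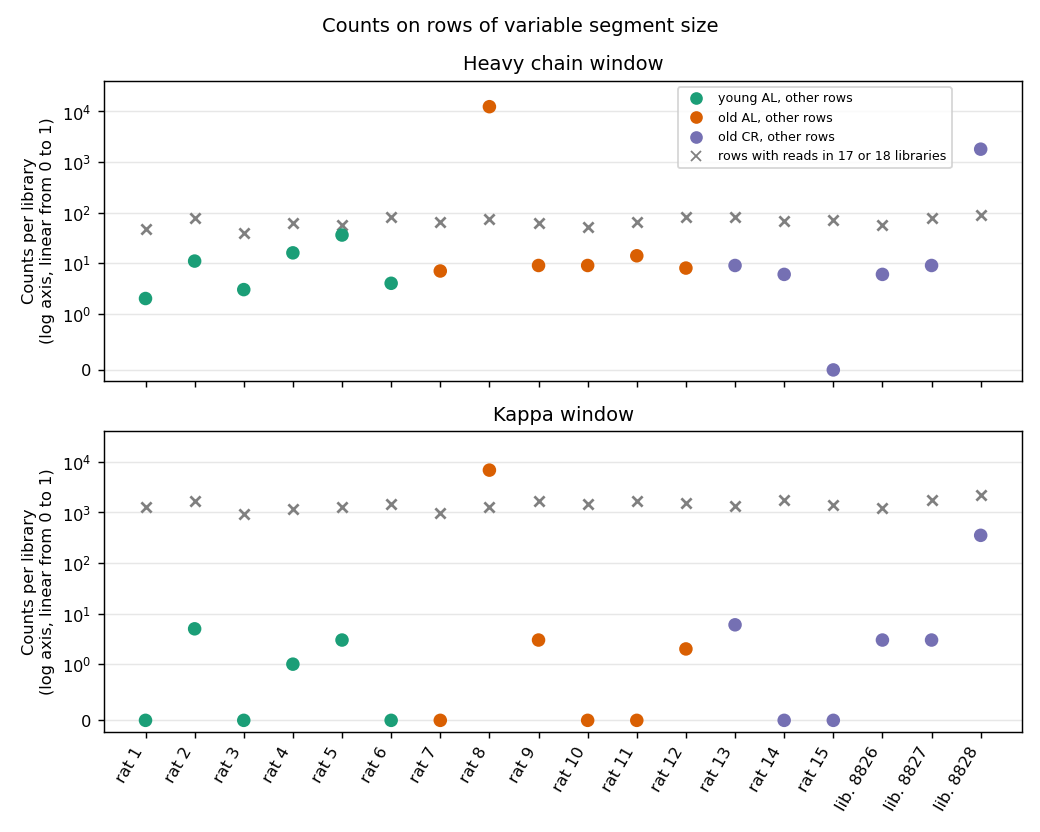
Counts per library on a log axis that is linear from 0 to 1, in the heavy chain window (top) and the kappa window (bottom). Coloured points are the 73 heavy chain or 34 kappa segments summed, and grey crosses are the widespread entries of the window summed. Rat 8 (12440 and 6876) and library 8828 (1797 and 353) lie far above the 16 other libraries, which reach at most 36 and 6, while the crosses are of similar height in all 18.

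Segments with any count were also most numerous in these 2 libraries. With the widespread entries included, 54 of 74 heavy chain entries had a count in rat 8 and 45 in library 8828, while the young AL libraries ranged from 2 to 24 (median 5.5), the other old AL libraries from 6 to 13 and the other old CR libraries from 1 to 6. For kappa, 21 of 37 entries had a count in rat 8 and 16 in library 8828, against 2 to 6 in every other library. The medians of the 3 groups were 5.5, 8.5 and 5.5 heavy chain entries and 3.5, 3.5 and 4.5 kappa entries in young AL, old AL and old CR rats. The heavy chain medians of young AL and old CR rats lay just below the lowest old AL library (6), and the kappa medians lay within the range of each other group. With a minimum of 3 counts for an entry, the heavy chain medians were 1.0, 1.0 and 2.5, so their order depends on that minimum.

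Among the 16 remaining libraries, young AL rats 5 and 4 had the most heavy chain entries with a count, 24 and 14. The same 2 libraries had the most identifiers with any count in the whole table, 24254 and 23217, where the others had 18989 to 22513. They also had the most entries of the same size outside the windows, 1138 and 994, against 572 to 951 in the other libraries. No single segment had more than 5 counts in any of the 16 libraries, and the part of library breadth in these numbers was not tested. At this depth the segments used by the 16 libraries were not detectable as a repertoire.

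**Figure D2:**
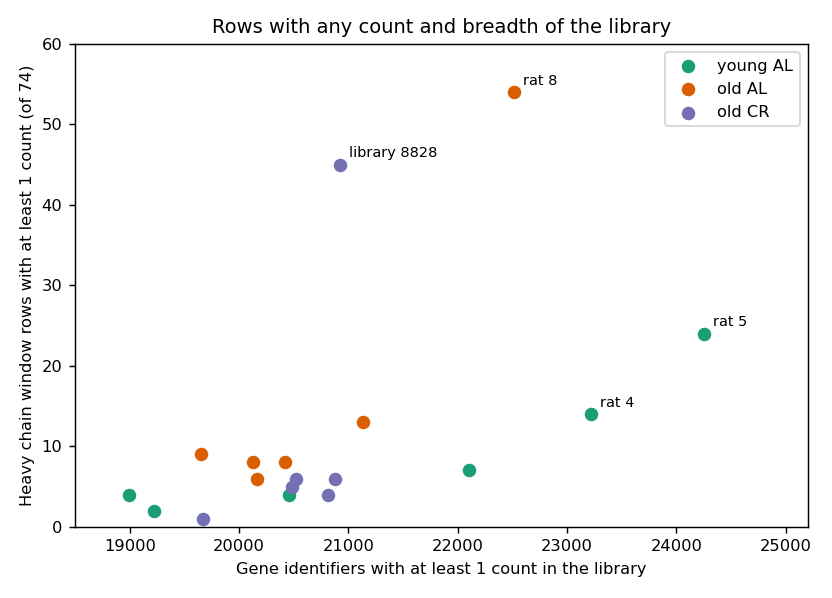
Number of heavy chain window entries with at least 1 count (of 74) against the number of all identifiers with at least 1 count, 1 point for each library. Rat 8 (54) and library 8828 (45) lie above all libraries of similar breadth, and young AL rats 4 (14) and 5 (24) lie at the right end with the most identifiers.

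The heavy chain segments of rat 8 were led by chr6:140585071-140587251, on the minus strand, with 3000 counts, or 24.1% of its segment counts (Wilson 95% interval 23.4 to 24.9%). In library 8828 this segment had 16 counts, or 0.890% (0.549 to 1.44%). It is annotated with exons of 275 and 64 bases and not with the leader layout. In the 16 other libraries it had 0 to 3 counts.

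The segment chr6:143065206-143065639 (minus strand, leader of 46 and variable exon of 305 bases) was the leading one of library 8828, with 522 counts, or 29.0% (27.0 to 31.2%). In rat 8 it had 2000 counts and was second, with 16.1% (15.4 to 16.7%). Next in rat 8 was chr6:141320809-141321108, on the minus strand, with 1459 counts (11.7%), which had 67 counts (3.73%) in library 8828. The shares of these 3 segments differed between the 2 libraries beyond their counting intervals. Such intervals compare 2 libraries, not 2 diets, since each group has 1 of them.

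Some segments took a larger share of library 8828. The single exon segment chr6:140879774-140880070 had 244 of its counts (13.6%) against 864 (6.95%) in rat 8. For chr6:142584754-142585188 the numbers were 182 (10.1%) against 422 (3.39%). Both lie on the minus strand, and their intervals in the 2 libraries did not overlap. The other leading heavy chain segments were chr6:140101861-140102325 (702 counts in rat 8 and 107 in library 8828), chr6:141112169-141112676 (617 and 89), chr6:142903147-142903440 (547 and 72) and chr6:140608225-140608745 (308 and 34). These and the 5 segments above are the leading 9 of the series. The widespread entry at 145777318 had rank 4 by total count among the 74 heavy chain entries.

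Kappa counts were concentrated on fewer segments. The segment chr4:102123869-102124609 (minus strand, leader layout) held 4661 counts in rat 8, or 67.8% (66.7 to 68.9%), and 129 in library 8828, or 36.5% (31.7 to 41.7%). The segment chr4:102489916-102490375, on the plus strand, also held 129 counts (36.5%) in library 8828, against 700 (10.2%) in rat 8. Next came chr4:103024092-103024841, on the minus strand, with 815 counts (11.9%) in rat 8 and 27 (7.65%) in library 8828. Thus the kappa segment that led in rat 8 shared the lead with another in library 8828. The next were chr4:101882994-101883460 (261 counts in rat 8 and 11 in library 8828) and chr4:102147211-102147775 (117 and 21). Below them, chr4:102351036-102351819 and chr4:102290338-102291065, both on the plus strand, had 98 and 92 counts in all.

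**Figure D3:**
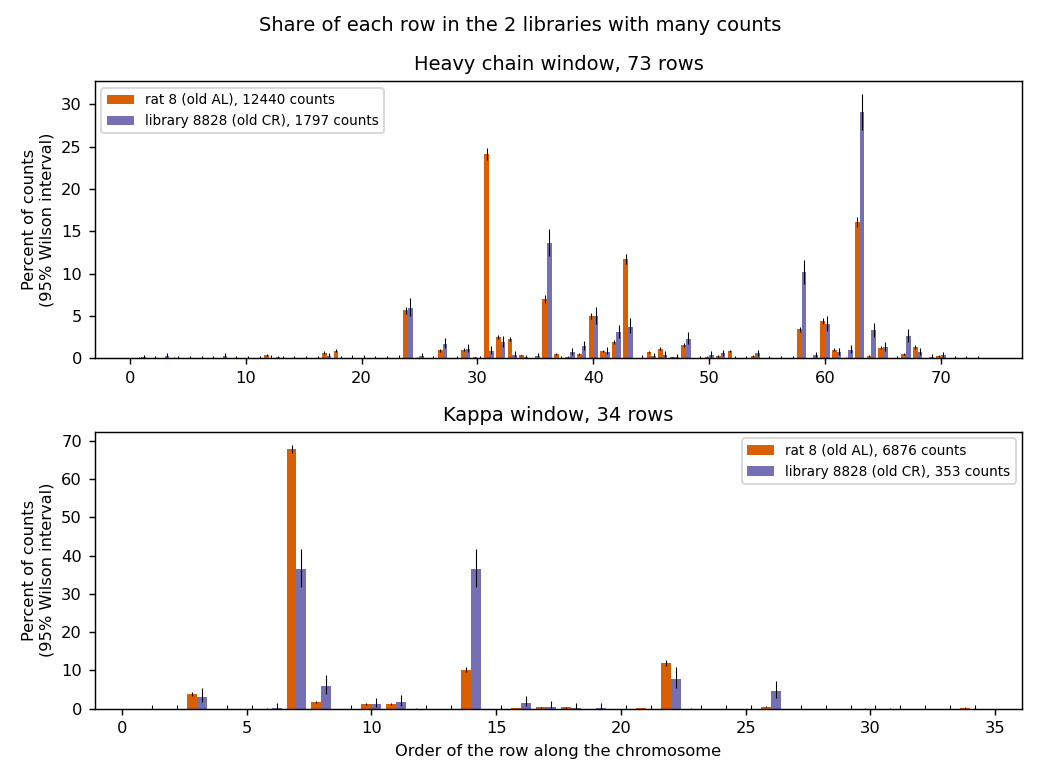
Percent of the segment counts of rat 8 (12440 heavy chain and 6876 kappa) and of library 8828 (1797 and 353) on each of 73 heavy chain (top) and 34 kappa (bottom) segments, in their order along the chromosome, with Wilson 95% intervals. The tallest heavy chain bar is 24.1% in rat 8 and 29.0% in library 8828, on different segments, and 1 kappa segment reaches 67.8% in rat 8.

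The breadth of usage was nonetheless close in the heavy chain. The effective number of segments, the exponential of the Shannon entropy of the shares, was 14.7 in rat 8 and 14.5 in library 8828. The 5 leading segments of each library held 64.5% and 63.7% of its counts, and 16 and 17 segments made up 90% of them. For kappa the effective numbers were 3.25 and 4.99, the 5 leading segments held 95.3% and 91.2%, and 4 and 5 segments made up 90%. Depth differed between the libraries, and no interval was computed for these measures.

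Across segments, the 2 libraries ranked the segments alike. Spearman's rho was 0.722 over the 55 heavy chain segments with a count in either library and 0.850 over the 19 kappa segments, as a description across segments whose mappability and length are shared by both libraries. Over the 21 heavy chain segments with at least 100 counts in rat 8, library 8828 had from 0% to 43.1% of the counts of rat 8 (median 13.9%), where the locus as a whole had 14.4%. Over the 5 such kappa segments the range was 2.77% to 18.4% and the locus had 5.13%. On the segments alone, rat 8 had 1.81 heavy chain counts for each kappa count and library 8828 had 5.09. Identifiers of other sizes in the windows, and entries elsewhere, are not part of these ratios. Of the former, that at 98337367 (kappa window) had more counts in both libraries than those at 138092131 and 138054662 (heavy chain window). Its counts for each count at 138092131 were 2.51 in rat 8 and 1.87 in library 8828. For each count at 138054662 they were 5.84 and 1.38. Read pairs that map to several places were not counted according to the authors' settings, so near-identical segments can lose counts and the shares of individual segments are uncertain.

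Segment counts were not spread evenly along the windows. In rat 8, the 14 heavy chain segments between 140 and 141 Mb held 5518 counts, the 13 between 141 and 142 Mb 2946, the 12 between 142 and 143 Mb 1273 and the 9 between 143 and 144 Mb 2433. The 9 segments between 138 and 139 Mb held 12 counts in rat 8 and 11 in library 8828, and the 14 between 139 and 140 Mb held 258 and 9. The 2 between 144 and 145 Mb held 0 in both libraries and 8 in the 16 others, and neither has the leader layout or is a single exon of 280 to 330 bases. In library 8828 the stretch from 143 to 144 Mb was the highest, with 672 counts. Minus strand segments held 98.0% of heavy chain segment counts in rat 8 and 99.7% in library 8828. For kappa, the 16 segments between 102 and 103 Mb held 5735 counts in rat 8 and 299 in library 8828, and minus strand segments held 80.6% and 48.7%. Counting was not set to use strand, so counts from overlapping antisense transcripts are not separated.

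The locus sums were compared between groups with all entries found by the rule, each locus as 1 line of the whole table in edgeR's quasi-likelihood fit. That fit estimates the spread over all 3 groups together, so a library outside a comparison also affects its p-value. Differences are log2 fold changes with their standard error (SE), and a call required both a Benjamini-Hochberg adjusted p no higher than 0.05 and a change of 1.5-fold or more. On CPM scaled by edgeR's TMM factors, the heavy chain sum was 2.37 to 4.02 in young AL (median 3.73), 3.24 to 486.4 in old AL (median 3.65) and 3.15 to 61.6 in old CR rats (median 3.94). The groups overlapped, and their medians differed less than the libraries within each group. The fitted difference between old and young AL rats was 4.63 (SE 1.39, edgeR adjusted p = 0.0636), and rat 8 carried it. It was called without old AL rat 11 (4.88, edgeR adjusted p = 0.0496) or without library 8828 (4.63, edgeR adjusted p = 0.0341), and was 0.10 without rat 8. Without both rat 8 and library 8828, a choice made after the data were seen, it was 0.10 (edgeR adjusted p = 0.764). Old CR against young AL rats gave 1.99 (SE 1.28, edgeR adjusted p = 0.411), and 0.15 without the 2 libraries. Old CR against old AL rats gave -2.64 (SE 1.25, edgeR adjusted p = 0.321), and 0.044 without them. It reversed to 1.91 without rat 8 alone (edgeR adjusted p = 0.122) and was -4.49 without library 8828 alone (edgeR adjusted p = 0.0681). None of the 3 differences was called.

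The kappa sum was 53.4 to 76.6 CPM in young AL (median 58.9), 49.7 to 316.6 in old AL (median 77.2) and 60.8 to 84.0 in old CR rats (median 73.8), again with overlap of all groups. Its differences were 0.89 (SE 0.33, edgeR adjusted p = 0.123) for old against young AL, 0.27 (SE 0.33, edgeR adjusted p = 0.695) for old CR against young AL and -0.62 (SE 0.33, edgeR adjusted p = 0.393) for old CR against old AL rats. Without rat 8 and library 8828 these were 0.25, 0.24 and -0.01. In a two-sided exact permutation test on log2(CPM + 0.05), the kappa sum of old CR rats exceeded that of young AL rats by 0.27 (exact p = 0.0433). Adjusted over the 6 locus comparisons by the Benjamini-Hochberg method, this exact p was 0.240, and every other exact p was 0.0801 or higher. These sums describe the widespread entries more than the segments in 16 of the 18 libraries.

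Only 3 of the 111 entries passed the filter on low counts, and all 3 are widespread entries. With edgeR none of them was called in any comparison, where 3.39% of the 14646 identifiers tested were called between old and young AL, 1.98% between old CR and young AL and 1.38% between the old groups. At an unadjusted p under 0.05, 1 entry passed between old and young AL and 0 in the other comparisons, where 22.3%, 19.3% and 15.3% of all identifiers tested did so. This was chr4:100250301-100252755, with a log2 fold change of 0.48 (SE 0.17, edgeR adjusted p = 0.105). It was called when young AL rat 2 was left out (0.60, edgeR adjusted p = 0.0359). DESeq2 gave adjusted p-values for 4, 4 and 3 entries in the 3 comparisons and called 0 of them, where it called 6%, 4.13% and 2.89% of all identifiers with an adjusted p. It gave an unadjusted p for 42 entries, of which 1, 0 and 0 were under 0.05, against 13.4%, 12.2% and 9.01% of all identifiers. When every identifier with a count was tested, 87 entries entered and 1 was called by edgeR between old and young AL rats, where 1.48% of all 29537 identifiers were called. In the other comparisons 0 entries were called, against 0.796% between old CR and young AL and 0.437% between the old groups. At an unadjusted p under 0.05 in this unfiltered fit there were 51, 10 and 23 of the 87 entries, against 16.5%, 15.5% and 10.9% of all identifiers. For all 51 of the first comparison rat 8 was the highest old AL library. For 50 of them it held at least 90% of the old AL counts, so these 50 reflect 1 rat. The remaining 1, the widespread entry chr4:100250301-100252755, had 29.3% of its old AL counts in rat 8. The entry called was chr6:140585071-140587251 (log2 fold change 10.51, SE 2.46, edgeR adjusted p = 0.0325), with 3000 of its old AL counts in rat 8, 2 in the 5 other old AL libraries together and 1 in all young AL libraries. An excess in 1 rat is what that value measures. The 10 and 23 entries of the other comparisons were not traced by library, and are not read as a difference between groups. Of all heavy chain segment counts 86.5% were in rat 8 and 12.5% in library 8828, and of kappa segment counts 94.8% and 4.87%.

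Rat 8 and library 8828 were also high outside the segments. Of the 29537 identifiers with a count, 12.98% had a higher CPM by library total in both of these libraries than in each of the other 16, and 8.07% did so with TMM scaling. Among the 83 segments with a count this held for 50 (60.2%), and for 49 with TMM scaling. The 2 libraries were singled out by their segment counts, so this share follows from that choice and is a description. It held for 109 of the 1908 entries of the same size elsewhere that had a count (5.71%), and for 81 with TMM scaling. Of those 109, 25 lie on chromosome 3 between 16 and 20 Mb, a stretch picked after the values were seen, where 37 such entries had 11457 counts in rat 8, 3694 in library 8828 and 1 to 20 in every other library, and 23 of the 37 have the leader layout. What kind of gene these are was not analysed here. In bulk RNA, fewer cells of a type and less RNA per cell cannot be told apart.

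Beside the segments, the 3 identifiers with the most counts in each window were examined. Among those of the kappa window, chr4:98337367-98523473 (ENSRNOG00000049829, plus strand, 15 exon starts, 1127 bases) followed the segments in rat 8 and library 8828, with 123563 and 18762 counts. It also differed between the groups in the remaining libraries. Young AL libraries had 2 to 24 counts, the other old AL libraries 42 to 187 and the other old CR libraries 3 to 34. On TMM-scaled CPM, the 6 old AL libraries (2.13 to 4803, median 5.63) all lay above the 6 young AL libraries (0.0967 to 1.01, median 0.290). Of the old CR libraries, 5 lay between 0.148 and 1.52, below every old AL library, and library 8828 lay at 612. Without rat 8 and library 8828, 3.67% of all identifiers had old CR libraries wholly below old AL libraries.

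The difference between old and young AL rats passed the test for this identifier (log2 fold change 10.95, SE 2.95, edgeR adjusted p = 0.0411), where 1.28% of all identifiers tested had old AL libraries wholly above young AL libraries. The call was lost when rat 8 was left out (3.70, edgeR adjusted p = 0.277), when rat 9 was left out (11.21, edgeR adjusted p = 0.0531) and when any 1 of the 6 young AL rats was left out (edgeR adjusted p from 0.0581 to 0.0883). Without both rat 8 and library 8828, a choice made after the data were seen, the difference was 3.72 (SE 0.55, edgeR adjusted p = 0.000915), and 2.6% of all identifiers were called higher. The means were then 5.33 ± 2.72 CPM (SD, n = 5) in old AL and 0.392 ± 0.324 CPM (SD, n = 6) in young AL rats. Library 8828 is outside the comparison of old and young AL rats but enters its p-values, because the spread is estimated over all groups. Old CR against old AL rats gave -2.97 (SE 1.99, edgeR adjusted p = 0.525) with all libraries. With 1 library left out this ranged from -10.08 to 4.29, positive without rat 8 and called without library 8828 (edgeR adjusted p = 0.0245). Without both it was -2.85 (SE 0.56, edgeR adjusted p = 0.00845), when the old CR mean was 0.731 ± 0.582 CPM (SD, n = 5) and 1.47% of all identifiers were called lower. Old CR against young AL rats was not called, at 7.98 (edgeR adjusted p = 0.118) with all libraries and 0.88 (SE 0.59, edgeR adjusted p = 0.415) without rat 8 and library 8828. It was called without rat 8 alone (edgeR adjusted p = 0.0222). These 2 libraries were set aside because of their segment counts, and the same identifier is high in them. The other old AL libraries belong to the same block of library numbers as rat 8, and a carry-over of reads between libraries was not tested.

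In the heavy chain window, chr6:138054662-138662511 (ENSRNOG00000034190, minus strand, 42 exon starts, 7244 bases) followed the same order. It had 21151 counts in rat 8, 13598 in library 8828, 11 to 31 in young AL, 37 to 160 in the other old AL and 8 to 31 in the other old CR libraries. All old AL libraries lay above all young AL libraries, but the difference was not called (log2 fold change 7.21, SE 2.24, edgeR adjusted p = 0.0718). It was called when library 8828 alone was left out (7.20, edgeR adjusted p = 0.0156), and fell to 1.88 (edgeR adjusted p = 0.549) when rat 8 alone was left out. Without rat 8 and library 8828, a choice made after the data were seen, it was 1.89 (SE 0.40, edgeR adjusted p = 0.00940). Old CR against old AL rats gave -0.90 (SE 1.64, edgeR adjusted p = 0.844) with all libraries. With 1 library left out this ranged from -7.16 to 4.45, positive without rat 8 and called without library 8828 (edgeR adjusted p = 0.0307). Without both rat 8 and library 8828 it was -1.84 (SE 0.43, edgeR adjusted p = 0.0197). Mean levels without them were 3.50 ± 2.64 CPM (SD, n = 5) in old AL, 0.938 ± 0.265 CPM (SD, n = 6) in young AL and 0.967 ± 0.463 CPM (SD, n = 5) in old CR rats. Old CR against young AL rats gave 6.30 (SE 2.17, edgeR adjusted p = 0.126) with all libraries. Without rat 8 and library 8828 they differed by 0.05 (SE 0.42, edgeR adjusted p = 0.965).

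Within the span of that identifier and on the same strand, but with no exon base in common, lies chr6:138092131-138093643 (4 exon starts, 1002 bases). The span also holds 2 of the heavy chain entries, which share no exon base with it either. The nested identifier was high in rat 8 (49249 counts) and library 8828 (10051) and had 5 to 23 counts in every other library. With all libraries its differences were 9.25, 6.72 and -2.53 for old against young AL, old CR against young AL and old CR against old AL. None was called (edgeR adjusted p = 0.0631, 0.160 and 0.585). With 1 library left out, the last ranged from -8.76 to 6.41, positive without rat 8. Old against young AL was called without library 8828 alone (edgeR adjusted p = 0.0206), and old CR against young AL without rat 8 alone (edgeR adjusted p = 0.0239). Without both rat 8 and library 8828 the 3 differences were 0.33, 0.48 and 0.15, and none was called. The shift between old and young AL rats seen in the remaining libraries for the other 2 identifiers was therefore not found for this one, although the difference between identifiers was not tested.

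**Figure D4:**
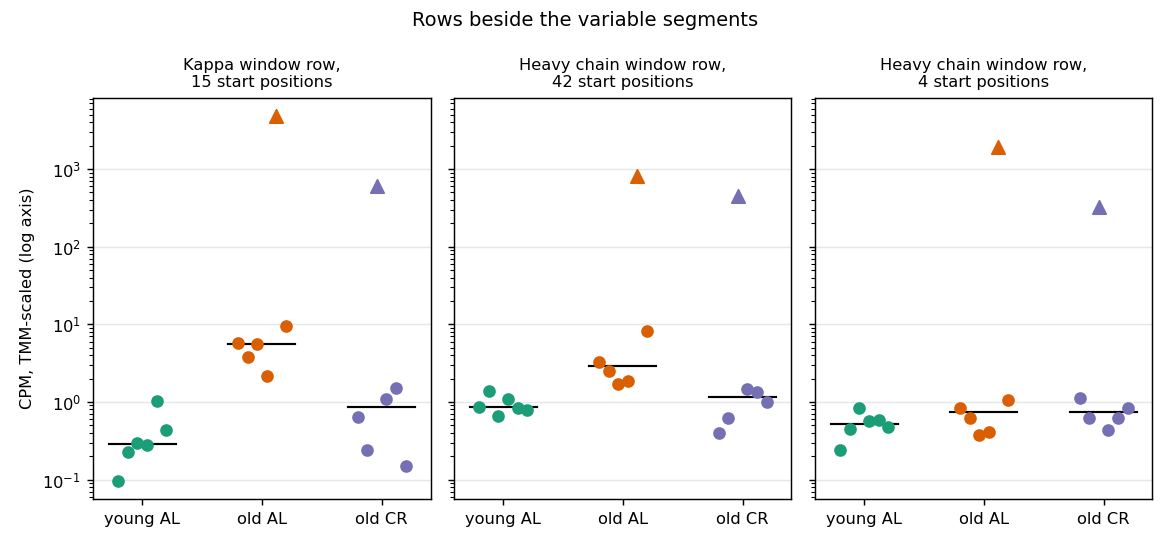
TMM-scaled CPM on a log axis of 3 identifiers beside the segments, 1 point for each library, with triangles for rat 8 and library 8828 and a line at the group median. In the left and middle panels the circles of old AL rats lie above those of young AL rats (2.13 to 9.44 against 0.0967 to 1.01 at the left), and in the right panel they overlap.

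The levels of the last 3 identifiers named by their counts depended on the scaling, since rat 8 has a TMM factor of 1.43. On chromosome 6, 144156175-144245545 (plus strand) ranged from 52.1 to 85.5 TMM-scaled CPM over all libraries. By library total it was highest in rat 8 (96.5), with 77.8 in library 8828 and 44.7 to 80.9 in the others. The 2 others of the kappa window, at 98027554-98044566 (plus strand) and 99074535-99125111 (minus strand) of chromosome 4, were lowest in rat 8 and next lowest in library 8828 of all 18 libraries with TMM scaling. The former had 175.8 and 238.3 TMM-scaled CPM in them and 249.8 to 347.6 in the other libraries, and the latter 99.7 and 152.5 against 225.9 to 530.5. By library total this order held for the latter (142.9 and 170.3 against 230.6 to 444.8) and not for the former, where rat 8 (252.1) and library 8828 (266.1) lay within the range of the others (246.4 to 356.1).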

How the data were processed

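RNA of 18 gastrocnemius samples had been depleted of ribosomal RNA and made into strand-specific libraries. The authors trimmed the reads (cutadapt 1.2.1, Sickle), aligned them to Rnor_6.0 with STAR 2.3.0e and counted read pairs on Ensembl release 96 genes with featureCounts 1.6.4. The deposited values are raw counts, whole numbers without normalization, and no column was left out. The length column of the deposited file gives exon bases. The file header shows no strand setting and no counting of multi-mapping pairs.

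The members, windows and lists were chosen with earlier results of these data known. Counts were tested in R 4.3.3 with edgeR 4.0.16 (filterByExpr, TMM, quasi-likelihood fit of all 18 libraries, Benjamini-Hochberg over 14646 identifiers, or 14645 with locus sums). A call needed an adjusted p no higher than 0.05 and a change of 1.5-fold or more. The fit was also run on simulated data, and the outcome is not reported here. Alternatives were DESeq2 1.42.0, other scalings, no filter, fits of the 2 groups compared, exact permutation, leading entries left out, thinning to the shallowest library, and each library left out. Wilson intervals (scipy 1.17.1) have 95% confidence and cover counting error only. Named were the 10 entries with the most counts in each window, entries called, each library's leading entry, and the 3 other identifiers with the most counts in each window. Identifiers were not paired with symbols, so marker lists and sequences were not used here. The p-values of edgeR rest on the spread between libraries within groups, estimated jointly over all libraries of the fit. Each group had 6 libraries, or 5 where 1 of them was left out.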

Additional observations from a re-analysis of the deposited data

Results flagged for a closer look

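In groups of 6 libraries, a library was singled out when its gap to the nearest other, as a part of the range of its group, was above the critical value of Dixon's test at 95%. This was met 16 times in 30 groups looked at, where chance gives about 1.5, and the measures are not independent of each other.

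For the heavy chain sum in CPM, rat 8 stood apart in old AL rats (gap 0.998 of the range) and library 8828 in old CR rats (0.980). For the kappa sum, rat 8 did (0.870). By the number of entries with a count, rat 8 stood apart in the heavy chain (0.854) and kappa windows (0.889), as did library 8828 (0.886 and 0.769).

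The identifiers beside the segments gave the same 2 libraries. At 138092131 on chromosome 6 the gaps were 1.0 in rat 8 and 0.998 in library 8828, at 138054662 they were 0.992 and 0.998, and at 98337367 on chromosome 4 they were 0.998 and 0.998. At 98337367, young AL rat 5 also stood above its group (0.635), with 24 counts where the other young AL libraries had 2 to 10. Rat 8 was the lowest old AL library at 98027554 (0.803) and at 99074535 (0.653) on chromosome 4. The cause of these values was not tested.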

How the results depend on the processing

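The heavy chain sum rests on rat 8 and library 8828. Leaving out 1 library at a time, old against young AL ranged from 0.10 (without rat 8) to 4.89, and it was called without old AL rat 11 (4.88, edgeR adjusted p = 0.0496) and without library 8828 (4.63, edgeR adjusted p = 0.0341). Old CR against old AL ranged from -4.49 to 1.91, reversing to 1.91 without rat 8, and was 0.044 without both. The kappa sum ranged from -0.77 to 0.036 in that comparison, reversing without rat 8. Without the leading entry of the window, the kappa difference was 2.37 between old and young AL rats and -2.03 between old CR and old AL rats, and without the leading entry of each library 1.56 and -1.22. Without the leading entry of each library, the heavy chain difference was 6.80 between old and young AL and 3.81 between old CR and young AL rats. None of these 6 was called. The count of entries called between old and young AL was 1 with no filter and 0 to 1 over libraries left out, the 1 being chr4:100250301-100252755 without young AL rat 2 (edgeR adjusted p = 0.0359). For old CR against old AL, the identifiers beside the segments ranged from -8.76 to 6.41 at 138092131 (0.15 without both), from -7.16 to 4.45 at 138054662 and from -10.08 to 4.29 at 98337367, each positive without rat 8. The call at 98337367 between old and young AL was lost without rat 8 (3.70, edgeR adjusted p = 0.277), without rat 9 and without any 1 of the young AL rats, when the largest edgeR adjusted p was 0.0883. Without rat 8, old CR against young AL was called at 138092131, 138054662 and 98337367 (edgeR adjusted p = 0.0239, 0.0288 and 0.0222), and old CR against old AL at 138092131 (edgeR adjusted p = 0.0468). Without library 8828, old CR against old AL was called at the same 3 (edgeR adjusted p = 0.0475, 0.0307 and 0.0245), and old against young AL at 138092131 and 138054662 (edgeR adjusted p = 0.0206 and 0.0156). DESeq2 gave no adjusted p for the heavy chain sum or for these 3 identifiers. All other alternatives for the locus sums and the entries called kept their direction and call. A minimum of 3 counts moved the median numbers of heavy chain entries from 5.5, 8.5 and 5.5 to 1.0, 1.0 and 2.5 in young AL, old AL and old CR rats, so that old AL no longer had the highest, and the kappa medians to 3.0 in each group. With at most 5 counts on any single segment in 16 libraries, differences between segments could not be resolved there. No paired analysis was possible because the replicate numbers are not shared between groups.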
